A study of Mus musculus with 6 samples.

Results

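The interferon response and antigen presentation genes are a set of 39 mouse genes that were chosen by name: sensors of viral nucleic acid, the transcription factors of the interferon pathway, interferon-stimulated effectors, and the genes that display peptides on major histocompatibility complex (MHC) class I molecules. All 39 were found by gene symbol among the 55060 genes listed for the islet samples, and all 39 passed the limit of a mean FPKM of at least 0.1 that left 21211 genes for testing. FPKM counts the fragments of a gene relative to its length and to the size of the library. Levels can be compared between genes, and between samples only so far as the make-up of the libraries is alike.

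RNA was sequenced from isolated pancreatic islets of 12-week-old C57BL/6 mice, in 3 Ctrl and 3 cKO samples. In cKO mice (*Ins2-Cre*; *Parn* f/f), Cre recombinase driven by the *Ins2* promoter removes exon 7 of *Parn* in β cells. The Ctrl group was made up of *Parn* f/f mice and other littermates. Whether any of the Ctrl mice sequenced carried Cre is not given in the sources used here. *Parn* encodes a poly(A)-specific ribonuclease, and the cells of the islet other than β cells keep the gene in both groups. The labels do not say whether each sample was 1 animal or a pool, so the p-values measure the spread between these samples, part of which may be technical.

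Interferons are secreted proteins that act through cell surface receptors and the JAK kinases on STAT transcription factors. Type I interferons bring STAT2 and IRF9 into a complex that binds the interferon-stimulated response element in the promoters of antiviral genes, whereas interferon γ acts mainly at gamma-activated sites and raises IRF1, guanylate-binding proteins and the class I and class II presentation genes. In islets, interferon-stimulated genes and MHC class I are best known from autoimmune diabetes, where β cells that display more class I are targets of T cells. In an islet sample the same genes are also transcribed by resident macrophages, other leukocytes and endothelial cells.

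The authors' library sizes, read back from the FPKM steps, were 15731223 to 18085944 reads, and 1 read on a gene of 1 kilobase was worth 0.0553 to 0.0636 FPKM. *Ins2* took 20.2% to 22.7% of the reads on genes in Ctrl and 14.7% to 17.6% in cKO. Its part in the FPKM of other genes was not tested. *Parn* was at 6.64, 8.34 and 7.38 FPKM in Ctrl replicates 1, 2 and 3 and at 4.97, 4.61 and 6.15 in cKO replicates 1, 2 and 3, in the direction of the labels, a value that covers all exons and not exon 7 alone. The 10 β-cell markers summed to 235964 to 276386 FPKM in Ctrl and 195405 to 217645 in cKO, and *Gcg*, the glucagon gene of α cells, was at 8219 to 15396 FPKM, so the samples carry the defining transcripts of islets. Ctrl replicate 1 stood apart from the other samples over all genes tested: the first principal component, with 34.7% of the variance, put it at -52.4 and the other 5 samples between -2.91 and 26.6. In that library, 21 of 22 leukocyte markers had their highest value of the 6 samples, and the list summed to 1027 FPKM there, 166 and 142 in the other Ctrl samples and 192, 254 and 263 in cKO. Fewer cells of a type and less RNA per cell cannot be told apart in bulk samples.

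The 39 genes were higher in cKO islets in their larger share, by small amounts. Of the members, 30 had a higher and 9 a lower mean log2(FPKM + 1) in cKO, with a median log2 fold change (log2FC, the difference between genotypes on that scale) of 0.22, against a median of -0.01 over all genes tested, of which 46.5% had the higher mean in cKO. The split was 34 higher and 5 lower without Ctrl replicate 1, 33 and 6 without cKO replicate 1, and 27 and 12 without Ctrl replicate 2 or without cKO replicate 2. At an unadjusted p under 0.05, 8 members were higher in cKO, against 4.33% of all genes tested, and 0 were lower, against 3.07%. They were *Oasl2*, *Usp18*, *Ifit1*, *Rsad2*, *Ifit3*, *Mx2*, *Irf9* and *Xaf1*. In 12 members every cKO sample lay above every Ctrl sample, against 7.11% of all genes, and in 0 members every cKO sample lay below, against 6.03%. The 12 were these 8 with *Dhx58*, *Ifih1*, *Cmpk2* and *Ddx58*.

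With limma's test and Benjamini-Hochberg adjustment over all genes tested, 0 of the 39 members and 0 of the 21211 genes reached an adjusted p under 0.05, with *Oasl2* lowest among the members at 0.392. For a single gene, the smallest p of an exact two-sided permutation test is 0.1 with groups of 3 and 3. Without Ctrl replicate 1, 16 members were higher at an unadjusted p under 0.05, against 5.9% of all genes, 0 were lower, against 5.53%, and 23 lay above both remaining Ctrl samples in every cKO sample, against 14.4% of all genes. The number higher fell to 4 without Ctrl replicate 2, against 3.34% of all genes, and to 4 without cKO replicate 2, against 3.6%. In these fits 0 members were lower, against 2.62% and 2.2% of all genes. The 4 were both times *Ifit1*, *Oasl2*, *Rsad2* and *Usp18*. The members share transcription factors, so a count over them is not a count of independent genes.

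**Figure D1:**
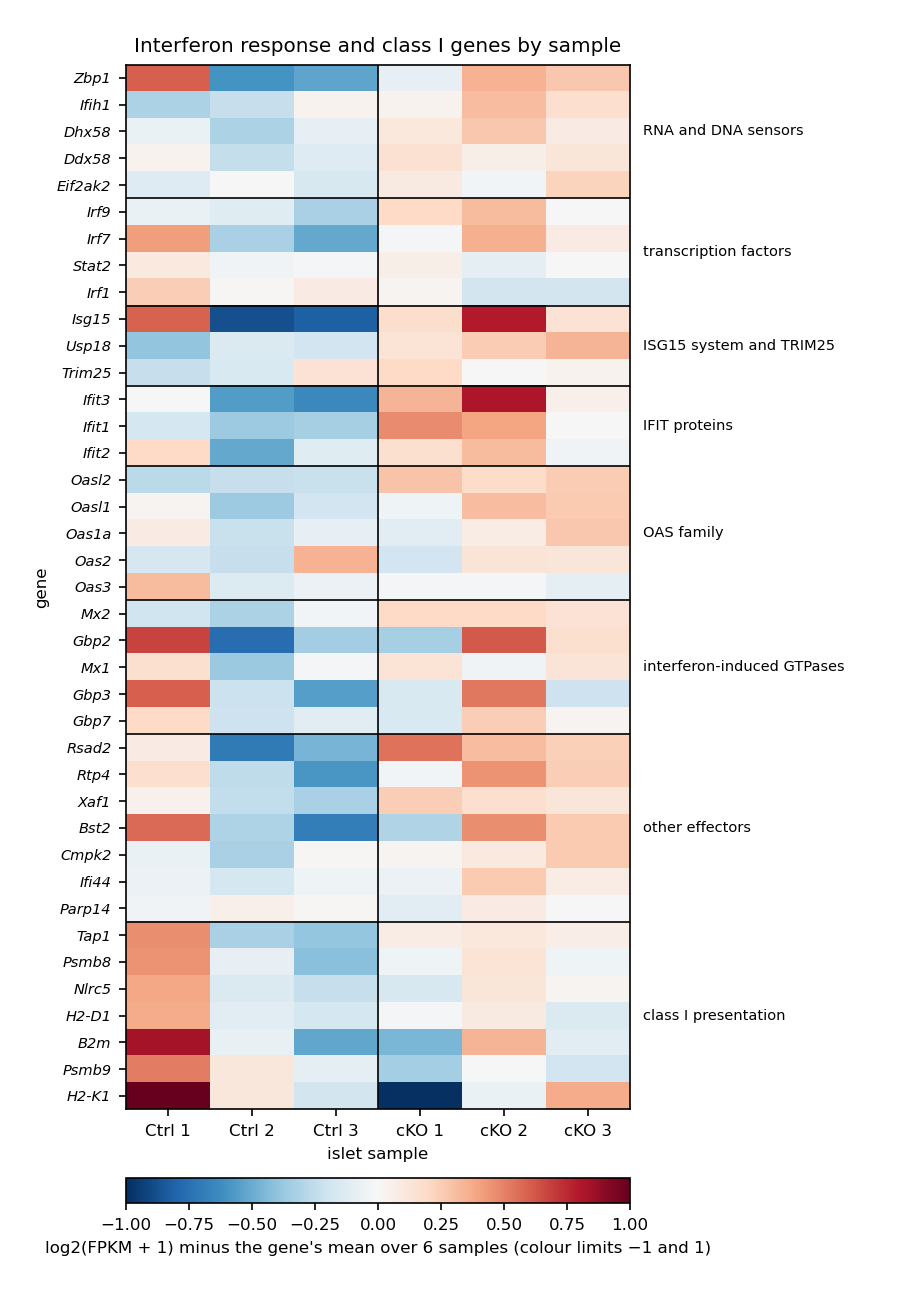
Each row is 1 of the 39 genes, ordered by role, and each column is 1 islet sample; the colour is log2(FPKM + 1) minus the mean of that gene over the 6 samples. *Usp18* and *Oasl2* are above their mean in every cKO sample, whereas the 7 class I presentation genes are all highest in Ctrl replicate 1.

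Short stretches of promoter show where the interferon-stimulated response element lies in members of both kinds, those whose genotypes were parted and those that were not. The element was searched as GAAA, any 2 bases, then GAAA, and the gamma-activated site as TTC, any 3 bases, then GAA, on both strands, from 250 bases before to 50 bases after each RefSeq start site of GRCm38.p6. On the opposite strand the response element reads TTTC, any 2 bases, then TTTC. In the lines that follow, 30 bases are given 5′ to 3′ on the strand of the gene, with the response element in capitals, and that of *Isg15* is the middle of 3 overlapping matches.
*Ifit1*, chr19:34640775-34640804, plus strand, 104 bases before the start site: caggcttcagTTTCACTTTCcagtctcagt
*Ifit3*, chr19:34583363-34583392, plus strand, 156 bases before the start site: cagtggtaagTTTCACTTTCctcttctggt
*Rsad2*, chr12:26456553-26456582, minus strand, 120 bases before the start site: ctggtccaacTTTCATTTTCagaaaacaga
*Isg15*, chr4:156200871-156200900, minus strand, 72 bases before the start site: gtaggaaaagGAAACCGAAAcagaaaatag
*Gbp2*, chr3:142620594-142620623, plus strand, 59 bases before the start site: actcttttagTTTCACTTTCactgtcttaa
*B2m*, chr2:122147538-122147567, plus strand, 139 bases before the start site: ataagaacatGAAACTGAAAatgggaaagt

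The first 3 of these genes had no overlap between genotypes and the other 3 did. A promoter window was at hand for 30 of the 39 members, and 15 of these 30 (50%) held the response element, against 3.99% of the 27025 genes with a window. The gamma-activated site was in 7 of the 30 (23.3%), against 9.55% of all genes. The response element was present in 3 of the 6 members with a window that were higher at an unadjusted p under 0.05 and in 12 of the other 24. The median log2FC was 0.22 for members with the element and 0.18 for members without it. A match of letters is not evidence of binding. *Usp18*, *Mx2*, *Dhx58*, *Rtp4*, *Zbp1*, *Mx1*, *Parp14*, *Oas2* and *Nlrc5* had no window.

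In 3 of the 5 sensors every cKO sample lay above every Ctrl sample, against 7.11% of all genes. They were the RIG-I-like receptors, which detect viral RNA in the cytosol. *Ifih1*, which encodes MDA5, was at 1.21, 1.35 and 1.83 FPKM in Ctrl islets and 1.83, 2.42 and 2.09 in cKO islets. Ctrl replicate 3 was all but level with cKO replicate 1 in that gene, so the gap between groups was far smaller than the spread within them. *Dhx58*, which encodes LGP2, was at 1.58, 1.17 and 1.54 FPKM in Ctrl and 1.90, 2.25 and 1.84 in cKO. *Ddx58*, which encodes RIG-I, was at 2.81, 2.15 and 2.40 FPKM in Ctrl and 3.12, 2.86 and 3.05 in cKO. Their log2FCs were 0.34, 0.30 and 0.22, and none passed limma's test, with adjusted p = 0.682 for *Ifih1*, 0.675 for *Dhx58* and 0.732 for *Ddx58*. The remaining sensors overlapped between groups. With all samples 0 sensors were higher at an unadjusted p under 0.05, against 4.33% of all genes. Without Ctrl replicate 1, *Ddx58*, *Dhx58* and *Zbp1* were higher at that p, against 5.9% of all genes. Without Ctrl replicate 3, *Ifih1* was higher, against 811 of 21211 genes. Without Ctrl replicate 2 or any 1 of the cKO samples 0 were higher, against 709 to 872 of 21211 genes. *Zbp1*, a receptor of Z-form nucleic acid, was at 1.67 FPKM in Ctrl replicate 1, 0.162 and 0.221 in the other Ctrl samples and 0.661 to 1.24 in cKO. *Eif2ak2*, which encodes the RNA-activated kinase PKR, had a log2FC of 0.19.

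The 4 transcription factors were split, 2 with the higher and 2 with the lower mean in cKO, and 3 and 1 without Ctrl replicate 1 or without cKO replicate 2, where *Stat2* changed sign. *Irf9* (ENSMUSG00000002325, chromosome 14, 55603571 to 55610030 of GRCm38), the DNA-binding partner of STAT2, was at 5.09, 4.86 and 4.10 FPKM in Ctrl islets and 6.30, 6.92 and 5.36 in cKO islets. The lowest cKO sample lay just above the highest Ctrl sample, with group means of 4.68 ± 0.52 (SD, n = 3) and 6.19 ± 0.786 and a log2FC of 0.34 (SE, the standard error, 0.124; limma adjusted p = 0.624). *Irf9* shares 123 bases of its span with *Rnf31* on the same strand, which was at a mean of 5.85 FPKM.

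*Stat2*, its partner, was nearly level, at 4.87, 4.37 and 4.44 FPKM in Ctrl and 4.74, 4.14 and 4.48 in cKO (log2FC -0.03). *Irf7*, the factor that amplifies type I interferon transcription, was at 4.43, 2.24 and 1.85 FPKM in Ctrl and 3.0, 4.19 and 3.29 in cKO. Its highest value was in Ctrl replicate 1 and its lowest values were in the other Ctrl samples, so the groups overlapped, with a log2FC of 0.28 (limma adjusted p = 0.834) and of 0.56 without Ctrl replicate 1 (limma adjusted p = 0.323). The difference in *Irf7* was 0.18 without Ctrl replicate 2, 0.091 without Ctrl replicate 3 and 0.17 without cKO replicate 2. *Irf1*, which is induced most strongly by interferon γ, was at 16.0, 13.4 and 14.1 FPKM in Ctrl and 13.6, 11.6 and 11.6 in cKO, a log2FC of -0.22 (limma adjusted p = 0.700). The groups overlapped by cKO replicate 1, which lay above Ctrl replicate 2.

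*Usp18* (ENSMUSG00000030107, chromosome 6, 121245906 to 121270917) was among the members with the smallest p. Its product removes the ubiquitin-like protein ISG15 from its targets and restrains signalling at the type I interferon receptor. It was at 5.75, 7.02 and 6.79 FPKM in Ctrl islets and 8.79, 9.61 and 10.2 in cKO islets, with means of 6.52 ± 0.674 (SD, n = 3) and 9.55 ± 0.728. The cKO mean was 1.46 times the Ctrl mean, and Ctrl replicate 1 was here the lowest of all samples. The log2FC was 0.49 (SE 0.105, limma adjusted p = 0.396), and *Usp18* kept an unadjusted p under 0.05 in each of the 6 fits that left out 1 sample. The annotated gene Gm44148 overlaps *Usp18* by 15715 bases on the opposite strand, at a mean of 0.648 FPKM, and the sources used here do not say whether reads were counted by strand.

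*Isg15* itself had a large but uneven difference. It was at 7.13, 1.93 and 2.07 FPKM in Ctrl islets and 5.12, 8.37 and 4.97 in cKO islets. All cKO samples lay above Ctrl replicates 2 and 3, and Ctrl replicate 1 lay among the cKO samples. The log2FC was 0.74 (SE 0.420, limma adjusted p = 0.766) with all samples and 1.22 (SE 0.228, limma adjusted p = 0.216) without Ctrl replicate 1. The difference in *Isg15* was 0.49 without Ctrl replicate 2, 0.52 without Ctrl replicate 3 and 0.53 without cKO replicate 2. *Trim25*, an E3 ligase of the ISG15 and RIG-I pathways, was at 10.9, 11.6 and 14.5 FPKM in Ctrl and 15.0, 13.0 and 13.3 in cKO (log2FC 0.16).

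The IFIT genes, which lie close together on chromosome 19 and encode proteins that bind foreign RNA, had the largest median log2FC of the 8 roles with all samples, at 0.58. Without cKO replicate 1 their median was 0.49, below the 0.54 of the ISG15 system and TRIM25. *Ifit1* (ENSMUSG00000034459, 34640871 to 34650009) was at 2.503, 2.08 and 2.15 FPKM in Ctrl islets and 4.50, 4.22 and 2.98 in cKO islets. Its Ctrl samples were close together and cKO replicate 3 was the cKO sample nearest to them, with means of 2.25 ± 0.226 (SD, n = 3) and 3.90 ± 0.812 and a log2FC of 0.58 (SE 0.153, limma adjusted p = 0.481). *Ifit3* (ENSMUSG00000074896, 34583531 to 34588731) was at 3.74, 2.22 and 2.03 FPKM in Ctrl and 5.02, 7.32 and 3.93 in cKO.

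The log2FC of *Ifit3*, 0.80 (SE 0.250, limma adjusted p = 0.546), was the largest of the 39 members in the main fit, but not in every other fit. *Rsad2* was larger with a pseudocount of 0.1, at 1.11 against 1.003, and *Isg15* without Ctrl replicate 1, at 1.22 against 1.005. *Rsad2* was also larger without cKO replicate 2, at 0.750 against 0.601. *Isg15* was also larger without cKO replicate 1, at 0.839 against 0.834, and with the leukocyte covariate described below, at 0.988 against 0.902. With limma's voom on the reads, *Zbp1* was at 1.24 and *Rsad2* at 1.16 against 1.01. In *Ifit3*, Ctrl replicate 1 came close to cKO replicate 3. Of all 50-base stretches of *Ifit3*, 51.2% also occur in *Ifit3b*, so reads of these genes could be split between them in counting. Added together they were at 4.72, 2.89 and 3.08 FPKM in Ctrl and 6.73, 9.39 and 5.15 in cKO, still without overlap. *Ifit2* overlapped between groups, with 0.631 to 1.66 FPKM in Ctrl and 1.27 to 1.89 in cKO. In all 3 genes Ctrl replicate 1 was the highest of the Ctrl samples.

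In the OAS family, *Oasl2* (ENSMUSG00000029561, chromosome 5, 114896936 to 114912234) had the smallest p of all members. It encodes an OAS-like protein, of the family whose enzymes make the 2′-5′ oligoadenylates that activate RNase L. *Oasl2* was at 1.205, 1.27 and 1.27 FPKM in Ctrl islets and 2.24, 2.02 and 2.17 in cKO islets. The spread within each group was small beside the gap between them, with means of 1.25 ± 0.0376 (SD, n = 3) and 2.14 ± 0.112, a ratio of 1.72 and a log2FC of 0.48 (SE 0.103, limma adjusted p = 0.392). Like *Usp18* and *Ifit1*, it kept an unadjusted p under 0.05 whichever sample was left out. Of the other members at that p with all samples, *Rsad2* and *Mx2* kept it in 4 of the 6 fits. *Ifit3* kept it in 3, *Irf9* in 2 and *Xaf1* in 1.

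The 4 other OAS family members overlapped. *Oas2* was at 1.24, 1.14 and 2.20 FPKM in Ctrl and 1.202, 1.74 and 1.74 in cKO, and its highest value was in Ctrl replicate 3. *Oasl1* and *Oas1a* had log2FCs of 0.35 and 0.15, and *Oas3*, the lowest of all members at 0.0360 to 0.413 FPKM, had one of -0.08. *Oas1a* shares 57.6% of its 50-base stretches with *Oas1g*.

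Of the interferon-induced GTPases, *Mx2* (ENSMUSG00000023341, chromosome 16, 97535308 to 97560900), a dynamin-like inhibitor of viruses, was at 0.587, 0.457 and 0.782 FPKM in Ctrl islets and 1.09, 1.08 and 1.01 in cKO islets. The cKO samples were nearly level, all above the highest Ctrl sample, with means of 0.609 ± 0.163 (SD, n = 3) and 1.06 ± 0.0432 and a log2FC of 0.36 (SE 0.120, limma adjusted p = 0.581). At so low a level the pseudocount of 1 shrinks the fold change, and the ratio of the means was 1.74. *Mx1*, its neighbour, was at 0.863, 0.286 and 0.651 FPKM in Ctrl and 0.827, 0.623 and 0.818 in cKO, with overlap.

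*Gbp2*, a guanylate-binding protein that acts on the vacuoles of intracellular microbes, was at 6.70, 1.84 and 2.80 FPKM in Ctrl and 2.83, 6.40 and 4.40 in cKO. The cKO values lay within the range of the Ctrl values, with a log2FC of 0.29 (SE 0.408, limma adjusted p = 0.900). *Gbp3* and *Gbp7* had log2FCs of 0.11 and 0.08, also with overlap, and all 3 of these Gbp members were far from the threshold. Ctrl replicate 1 was the highest of the Ctrl samples in each of the 3.

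Other effectors held the neighbours *Rsad2* and *Cmpk2* on chromosome 12. *Rsad2* (ENSMUSG00000020641, 26442746 to 26456452) encodes viperin, which makes a chain-terminating nucleotide. It was at 1.996, 0.733 and 1.05 FPKM in Ctrl islets and 3.11, 2.51 and 2.33 in cKO islets. The 2 groups did not overlap, with means of 1.26 ± 0.657 (SD, n = 3) and 2.65 ± 0.408, a ratio of 2.10 and a log2FC of 0.72 (SE 0.220, limma adjusted p = 0.545). *Cmpk2*, a mitochondrial nucleotide kinase, was at 8.01, 6.57 and 8.53 FPKM in Ctrl and 8.63, 9.12 and 10.3 in cKO. The gap between Ctrl replicate 3 and cKO replicate 1 was small in *Cmpk2*, with a log2FC of 0.25 (limma adjusted p = 0.700).

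*Xaf1* (ENSMUSG00000040483, chromosome 11, 72301629 to 72313733), a partner of the apoptosis inhibitor XIAP, was at 1.38, 0.949 and 0.846 FPKM in Ctrl and 1.74, 1.59 and 1.51 in cKO. Its means were 1.06 ± 0.284 (SD, n = 3) and 1.61 ± 0.114, and its log2FC was 0.35 (SE 0.136, limma adjusted p = 0.651). *Bst2*, which encodes tetherin, was at 27.2, 14.4 and 10.8 FPKM in Ctrl and 14.5, 25.4 and 21.9 in cKO, and was highest in Ctrl replicate 1. *Rtp4* and *Ifi44* overlapped, with log2FCs of 0.44 and 0.18. *Parp14*, an ADP-ribosyltransferase, was nearly level at -0.02.

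**Figure D2:**
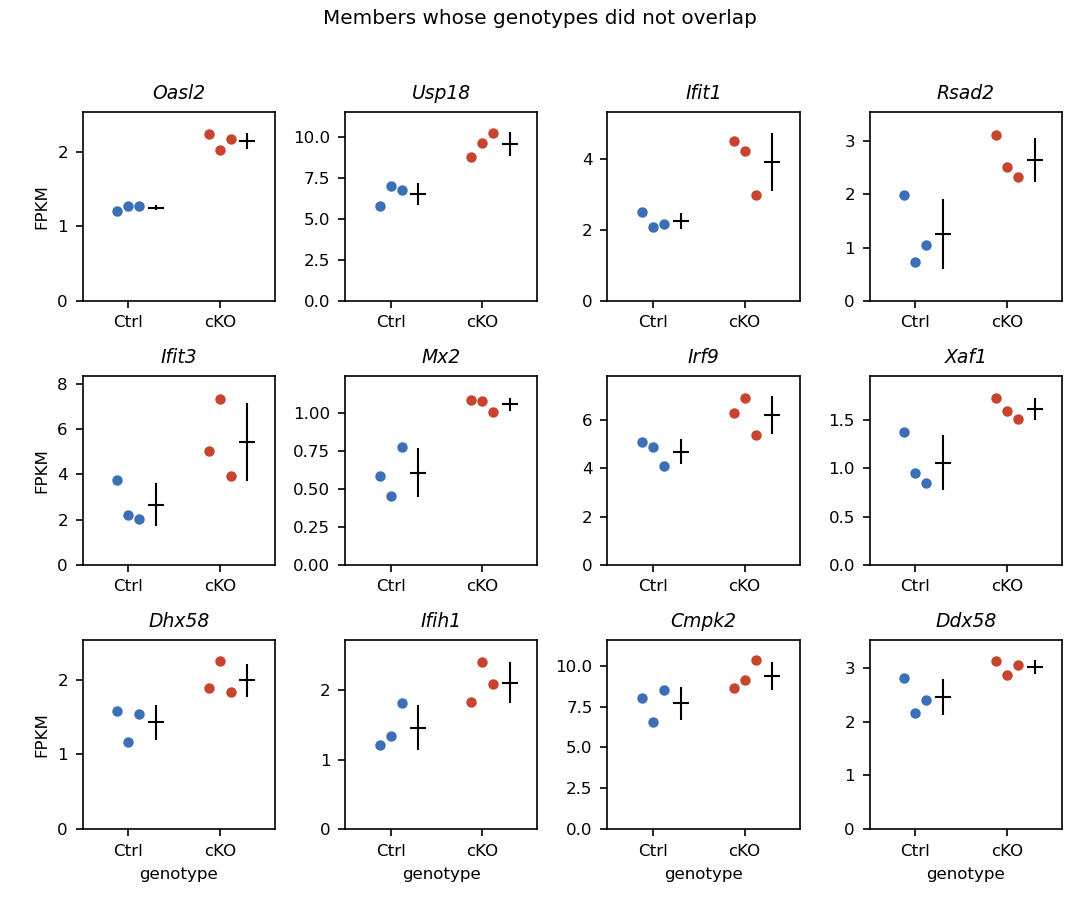
FPKM in each Ctrl (blue) and cKO (red) sample, with replicates 1, 2 and 3 from left to right, of the 12 members in which every cKO sample lay above every Ctrl sample; the cross and bar are the mean and SD of the 3 samples. The gap was wide beside the spread in *Oasl2* and *Usp18* and narrow in *Ifih1* and *Cmpk2*.

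Of the 7 class I presentation genes, 0 passed an unadjusted p under 0.05 in either direction, against 4.33% of all genes higher and 3.07% lower, 0 were without overlap, against 7.11% and 6.03%, and 5 had the lower mean in cKO. Their median log2FC was -0.05. Without Ctrl replicate 1, 2 of the 7 had the lower mean, the median log2FC was 0.18, *Tap1* passed an unadjusted p under 0.05, against 5.9% of all genes higher, and *Tap1* and *Psmb8* lay above both other Ctrl samples in every cKO sample, against 14.4% of all genes. The lower mean was in 6 of the 7 without Ctrl replicate 3, and in 3 without cKO replicate 1. Without Ctrl replicate 3, *Psmb9* was lower at an unadjusted p under 0.05, against 857 of 21211 genes. In all 7, Ctrl replicate 1 was the highest of the 6 samples, which held for 16 of the 39 members and for 22.1% of all genes tested. It exceeded the mean of the other 2 Ctrl samples by a ratio of 1.43 to 2.59, with a median of 1.99. The summed level of the 7 genes was 918, 516 and 427 FPKM in Ctrl and 398, 601 and 532 in cKO.

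*B2m*, which encodes the invariant light chain of class I molecules, was the most abundant member, at 399.9, 213 and 156 FPKM in Ctrl islets and 162, 283 and 207 in cKO islets. *H2-D1*, a classical class I heavy chain, was at 229.5, 163 and 157 FPKM in Ctrl and 175, 188 and 160 in cKO. *H2-K1*, the other classical heavy chain, was at 259, 121 and 98.97 FPKM in Ctrl and 41.4, 107 and 145 in cKO. In *H2-K1*, cKO replicate 1 was the lowest sample and Ctrl replicate 1 the highest, and its log2FC of -0.75 (SE 0.541, limma adjusted p = 0.820) was the most negative of the members with all samples. It was -0.34 without Ctrl replicate 1 and -0.22 without cKO replicate 1, where *Irf1* was lower at -0.29, and reached -1.12 without cKO replicate 3.

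The ratio of *H2-K1* to *H2-D1* ran from 0.632 to 1.13 in Ctrl and was 0.236, 0.570 and 0.910 in cKO. Of their 50-base stretches, 9.63% and 12.8% also occur in other genes, among them other class I genes, so reads could be split in counting. The log2FC was -0.16 for *B2m* and -0.05 for *H2-D1*, and both changed sign without Ctrl replicate 1, to 0.22 and 0.12.

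The machinery that supplies peptides showed the same high value in Ctrl replicate 1. *Tap1*, a subunit of the peptide transporter, was at 6.72, 3.47 and 3.27 FPKM in Ctrl and 4.88, 5.01 and 4.86 in cKO. The cKO samples were level in *Tap1* and lay between Ctrl replicate 1 and the other Ctrl samples, with a log2FC of 0.16, of 0.44 without Ctrl replicate 1 (limma adjusted p = 0.227), of 0.043 without Ctrl replicate 2 and of 0.0095 without Ctrl replicate 3. *Psmb8*, an immunoproteasome subunit, was at 13.5, 9.04 and 6.96 FPKM in Ctrl and 9.30, 10.7 and 9.32 in cKO. *Psmb9*, another immunoproteasome subunit, had a log2FC of -0.35 and ranged from 5.11 to 8.30 FPKM in Ctrl and from 4.15 to 5.56 in cKO. *Nlrc5*, the transactivator of class I genes, was at 1.13, 0.479 and 0.396 FPKM in Ctrl and 0.462, 0.779 and 0.671 in cKO, with a log2FC of -0.01. *Tap1* and *Psmb9* overlap by 212 bases on opposite strands.

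**Figure D3:**
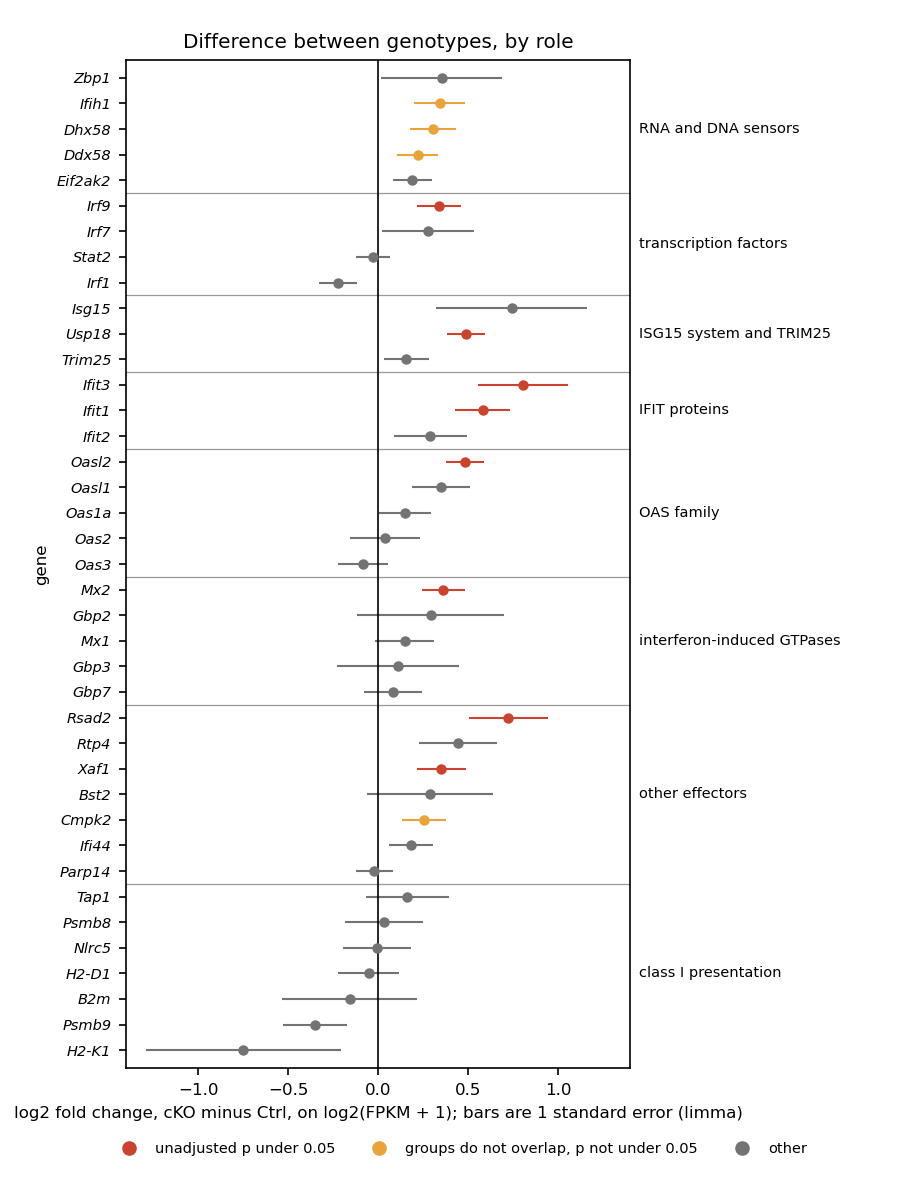
The log2FC of each of the 39 genes, cKO minus Ctrl on log2(FPKM + 1), with bars of 1 standard error (SE) from limma; red marks the 8 members with an unadjusted p under 0.05 and orange the 4 others without overlap between genotypes. *Ifit3*, *Isg15* and *Rsad2* lie farthest to the right, and *H2-K1* farthest to the left with the widest bar.

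Leukocyte markers, class II genes and class I genes shared the high level in Ctrl replicate 1. The class II presentation list, which marks antigen-presenting cells, had its highest value in Ctrl replicate 1 in 10 of 10 genes and summed to 767, 273 and 230 FPKM in Ctrl and 236, 408 and 428 in cKO. It had the higher mean in cKO in 0 of 10 genes, and in 10 of 10 without Ctrl replicate 1. Among Ctrl samples, Ctrl replicate 1 was the highest in 29 of the 39 members, against 38.2% of all genes. The leukocyte markers had 4 of 22 genes with the higher mean in cKO, and 21 of 22 without Ctrl replicate 1. *Cd79a*, of B cells, was lower in cKO at an unadjusted p under 0.05 and without overlap (log2FC -1.18), against 3.07% and 6.03% of all genes, and no gene of the list was at 0 in every sample of a group. When the mean level of the 22 leukocyte markers was added to the fit as a covariate, 16 members were higher at an unadjusted p under 0.05, against 5.59% of all genes, and 0 were lower, against 5.38%. The 8 members of the fit without the covariate were among the 16, with *Isg15*, *Irf7*, *Tap1*, *Zbp1*, *Bst2*, *Rtp4*, *Oasl1* and *Dhx58* added, and the smallest adjusted p of a member was 0.198 (limma). The covariate was 3.60 in Ctrl replicate 1 and 1.82 to 2.29 in the other samples. The fit with it is therefore close to leaving out Ctrl replicate 1, and is not separate evidence.

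Markers of other cells that respond to interferon were also read. Of 10 endothelial markers, 7 had the higher mean in cKO, against 46.5% of all genes. At an unadjusted p under 0.05, 2 were higher, *Plvap* and *Cdh5*, against 4.33% of all genes, with log2FCs of 0.43 and 0.36. Their sum was 148 to 165 FPKM in Ctrl and 163 to 201 in cKO. The stromal markers had the higher mean in 9 of 10 genes, against 46.5% of all genes, a median log2FC of 0.52, and sums of 32.99 to 48.1 FPKM in Ctrl and 41.1 to 84.3 in cKO. *Lum* and *Col3a1*, with log2FCs of 1.26 and 1.203, were the 2 stromal markers at an unadjusted p under 0.05, against 4.33% of all genes, and *Lum* was without overlap. Without cKO replicate 1, 7 stromal markers were higher at an unadjusted p under 0.05, against 872 of 21211 genes. Acinar markers, from the exocrine tissue around islets, had the higher mean in 10 of 10 genes, a median log2FC of 0.73, and sums of 14258, 20633 and 7810 FPKM in Ctrl and 35503, 9540 and 29848 in cKO. In the acinar list with all samples, 0 of 10 passed an unadjusted p under 0.05, against 4.33% of all genes higher and 3.07% lower. In that list 0 were without overlap, against 7.11% and 6.03%. With cKO replicate 2 left out, 6 were higher at that p, against 3.6% of all genes. In the same fit 10 were higher without overlap, against 2350 of 21211 genes. No marker of these lists was at 0 in every sample of a group. *Siglech*, the defining marker of plasmacytoid dendritic cells, which are a main source of type I interferon, was at 0.236 to 0.432 FPKM. Of the 7 genes of that list that were tested, 0 passed an unadjusted p under 0.05, against 4.33% of all genes higher and 3.07% lower. The sum of the list, most of it *Klk1* and *Cox6a2*, was 210 to 472 FPKM in Ctrl and 208 to 536 in cKO. *Spib*, also a gene of B cells, was at 11.2 FPKM in Ctrl replicate 1 and 0.0602 to 0.218 in the other samples. The part of the endothelial, stromal and acinar cells in the values of the interferon genes was not tested.

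**Figure D4:**
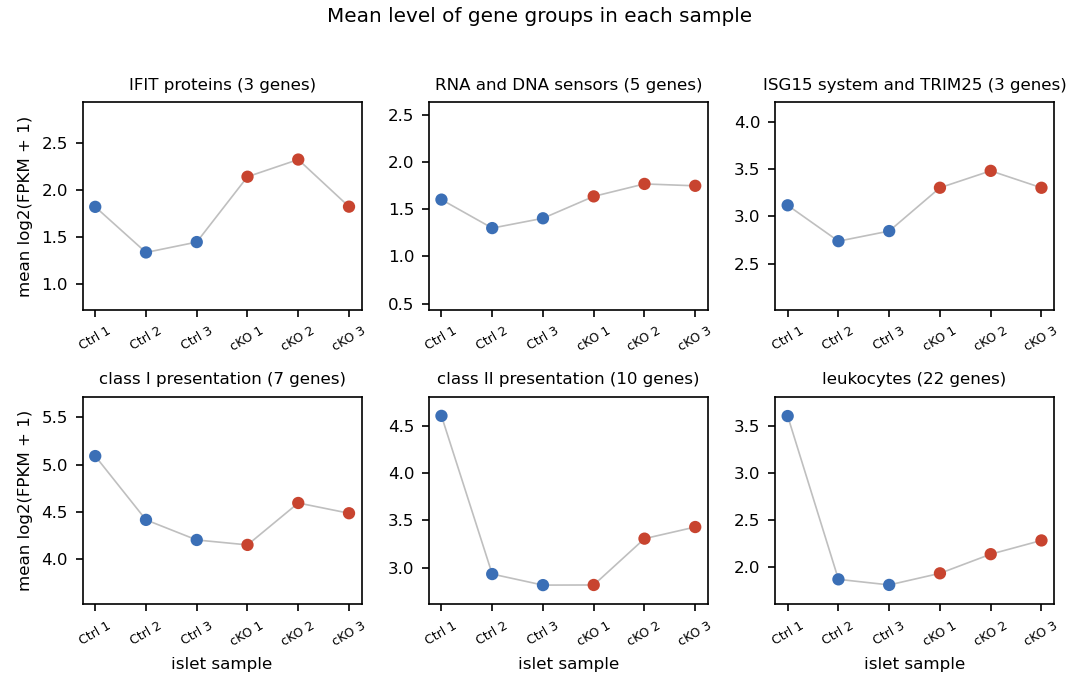
Mean log2(FPKM + 1) of 6 gene groups in each Ctrl (blue) and cKO (red) sample, on vertical axes of equal span that do not start at 0; lines join the samples for the eye only. The IFIT proteins are lowest in Ctrl replicates 2 and 3, whereas class I, class II and leukocyte genes share a peak in Ctrl replicate 1.

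Upstream of the interferon-stimulated genes, the ligands were at or near 0. Of 11 interferon genes, 9 were at 0 in every Ctrl sample and 8 in every cKO sample, and *Ifng* was the member of the list that passed the limit on low values. *Ifng* was at 0.531, 0 and 0 FPKM in Ctrl and 0.0440, 0.133 and 0.171 in cKO, which is 12 reads in Ctrl replicate 1 and at most 4 in any other sample. *Ifnb1* had 1 read, in cKO replicate 2. At this depth, a difference in ligand transcripts was not detectable.

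Of the 10 receptor and JAK-STAT genes, 0 passed an unadjusted p under 0.05, against 4.33% of all genes higher and 3.07% lower. So short a list at those shares could hold 0 without any bearing on the pathway. The log2FCs were -0.04 for *Ifnar1* and -0.08 for *Ifnar2*, the chains of the type I receptor, and 0.00 for *Ifngr1* and 0.11 for *Ifngr2*, the chains of the interferon γ receptor. Of the 16 sensing adaptors and kinases tested, 0 passed an unadjusted p under 0.05, against the same shares of all genes. At that p 2 were higher without Ctrl replicate 1, against 5.9% of all genes, and 1 was lower without cKO replicate 1, against 544 of 21211 genes.

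Of 40 other interferon-stimulated genes tested, 26 had the higher and 14 the lower mean in cKO. In this list, 4 were higher at an unadjusted p under 0.05, against 4.33% of all genes, and 0 were lower, against 3.07%. These were *Ifit3b* (log2FC 0.48), *Oas1g* (0.35), *Phf11d* (0.43) and the chemokine *Cxcl11* (0.77), and the median of the list was 0.04. None had an adjusted p under 0.05 by limma. Without Ctrl replicate 1, 11 of the 40 were higher at an unadjusted p under 0.05, against 5.9% of all genes, and 1 was lower, against 5.53%. Without Ctrl replicate 2, Ctrl replicate 3 or cKO replicate 1, 2 were higher, against 709, 811 and 872 of 21211 genes.

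Of 13 other guanylate-binding and immunity-related GTPases, 4 were higher at an unadjusted p under 0.05, against 4.33% of all genes, and the same 4 were without overlap, against 7.11%. These were *Gbp8*, *Gbp9*, *Gbp10* and *Gbp11*. *Gbp8* was at 5.18, 3.27 and 0.559 FPKM in Ctrl and 12.9, 14.9 and 11.7 in cKO, a log2FC of 2.03 (SE 0.478, limma adjusted p = 0.430). *Gbp11* and *Gbp9* had log2FCs of 1.43 and 0.81, and *Gbp10*, low in all samples, 0.27. As genes without overlap, these 4 could not have been highest in Ctrl replicate 1, so no contrast with *Gbp2* and *Gbp3* follows. They belong to 1 gene family, whose reads can be split between similar copies in counting. Whether these Gbp genes differ from the 3 members in their response was not tested.

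Of 20 genes of class I loading and other class I genes, 3 were higher at an unadjusted p under 0.05, against 4.33% of all genes, and the same 3 were without overlap, against 7.11%. The first of these counts was 1 without Ctrl replicate 2, against 3.34% of all genes. It was also 1 without cKO replicate 1 or 3, against 872 and 763 of 21211 genes, and 4 without Ctrl replicate 1, against 5.9%. *Tap2*, the partner of *Tap1* in the transporter, was at 9.63, 9.01 and 9.06 FPKM in Ctrl and 16.6, 14.3 and 11.7 in cKO, a log2FC of 0.56 (SE 0.129, limma adjusted p = 0.414). Whether *Tap1* and *Tap2* differ in their response was not tested. *Calr* and *Tapbpl*, chaperones of peptide loading, had log2FCs of 0.30 and 0.25. In the constitutive 20S proteasome, 0 of 14 genes passed an unadjusted p under 0.05, against 4.33% of all genes higher and 3.07% lower. Without Ctrl replicate 3, 2 were lower at that p, against 857 of 21211 genes, and 9 were lower without overlap, against 2625 of 21211. Of 7 feedback genes, 1 was higher and 1 lower at an unadjusted p under 0.05, against 4.33% and 3.07% of all genes. Without overlap, 1 was higher and 2 were lower, against 7.11% and 6.03%. At that p *Ptpn11* was higher (log2FC 0.23), but 0 feedback genes were higher without cKO replicate 3, against 763 of 21211 genes. *Socs1*, a JAK inhibitor that is induced by interferon γ, was lower, at 2.07, 1.25 and 1.199 FPKM in Ctrl and 0.587, 0.989 and 0.856 in cKO (log2FC -0.46, limma adjusted p = 0.645). *Socs1* did not pass an unadjusted p under 0.05 without Ctrl replicate 1 or without cKO replicate 1 or 3.

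The members were read from 4 to 11783 reads per sample, and the 12 without overlap from 26 to 778, so counting error is part of the spread of the low genes. The 39 genes lie on 14 chromosomes, and 17 of them lie within 100 kb of another member. The 17 members that overlap another annotated gene were counted with an unstated strand setting.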

How the data were processed

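RNA-seq of islets was used from 3 Ctrl and 3 cKO samples, grouped by the labels. Total RNA had been extracted with TRIzol and libraries made with a SMARTER mRNA kit, and the study had compared genotypes with a test on counts. The aligner, counter and strand setting are not given in the sources used here. The authors deposited a table of FPKM, fragments relative to gene length and library size, for each gene in each sample, on GRCm38 coordinates. Whole reads were read back from FPKM (tolerance 0.02 of a read, 100% of values whole). The depth is in the report, and the spread between 3 samples limits precision further.

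Since the file holds FPKM, log2(FPKM + 1) was compared with limma 3.58.1 in R 4.3.3 (empirical Bayes with trend, two-sided, Benjamini-Hochberg adjustment over all 21211 genes whose mean FPKM reached 0.1). Fold changes on this scale understate the change of low genes. The code was tested on simulated data. Figures were drawn in Python 3.11.15 (matplotlib 3.10.9), and promoter sequences came from RefSeq on GRCm38.p6. Shared 50-base stretches were counted against GENCODE transcripts.

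Members, gene lists and marker lists were chosen with earlier results of these data known. Values in every sample are given for members with an unadjusted p under 0.05 or without overlap, for the 6 most abundant members and for at least 1 member of each role. Of the pathway lists, genes at an unadjusted p under 0.05 and the receptor chains are named, and 1 gene that the rule names is not reported here. The α-, δ- and duct-cell marker lists were not used here beyond *Gcg*, and *Ifnb1*, *Isg15* without Ctrl replicate 1 and single marker genes were chosen for naming after their values were seen. The alternatives were another pseudocount, filter, variance model or scaling, a replicate block, leaving out each sample, and limma's voom on the reads. The leukocyte covariate was chosen after seeing the data.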

Additional observations from a re-analysis of the deposited data

How the results depend on the processing

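No member had an adjusted p under 0.05 in any of the 15 alternatives by limma, and the smallest was 0.178, without Ctrl replicate 1. At an unadjusted p under 0.05, 16 members were higher with the leukocyte covariate, against 5.59% of all genes. Under the other alternatives that kept all samples 6 to 10 were higher, against 687 to 1046 of the 13363 to 29296 genes tested. When 1 sample was left out 4 to 16 were higher and 0 to 1 lower, against 709 to 1251 and 402 to 1173 of 21211 genes. Members without overlap then numbered 12 to 23 higher and 0 to 1 lower, against 2159 to 3048 and 2074 to 3111 of 21211 genes. The median log2FC of the members was 0.14 to 0.29 with 1 sample left out and 0.22 to 0.31 under the other alternatives. The direction reversed for some genes, mostly those near 0 in the main fit but also *Gbp2*, at 0.29 there, and the cause was not tested. *Nlrc5* was at 0.034 with a pseudocount of 0.1, 0.0058 with quantile normalization, 0.0022 with median centring, 0.096 with the leukocyte covariate and 0.037 with voom. *H2-D1* was at 0.061 with quantile normalization and 0.033 with the covariate, and *B2m* at 0.047 with the covariate. With 1 sample left out, the log2FC ranged from -0.12 to 0.18 for *Nlrc5*, -0.15 to 0.12 for *H2-D1*, -0.46 to 0.22 for *B2m*, -0.066 to 0.013 for *Stat2*, -0.070 to 0.22 for *Oas2*, -0.00034 to 0.27 for *Mx1*, -0.016 to 0.70 for *Gbp2* and -0.17 to 0.27 for *Psmb8*. The other 378 values of the 27 members named by rule kept their direction and their side of the adjusted threshold. Of the other 12 members, 4 changed sign when 1 sample was left out (*Gbp3*, *Gbp7*, *Parp14* and *Oas3*). With a replicate block, 6 members were higher, and *Mx2* and *Xaf1* no longer passed. Same-numbered samples did not deviate together (correlations of -0.171, -0.0219 and -0.0652). With so few samples per group, these values cannot settle whether the numbers pair the samples, and the labels do not say. Depth limits *Oas3* and the interferon ligands.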
